A study of Nannochloropsis oceanica with 10 samples.

Results

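The genes *g6926* and *g7046* are 2 of the 10363 genes counted by mRNA-Seq in the oleaginous alga *Nannochloropsis oceanica* IMET1, and both carry an annotation that has to do with cellulose. *g6926* is described as a cellulose synthase. *g7046* was chosen by the study from its levels in 3 sets of samples (dark, 1 h and 6 h of high light, HL), as the gene of cellulose synthesis that HL lowered. It was selected on measured values, so its strain differences and light responses in these samples are given as a description, with no test. The values that led to the choice of *g6926* are not recorded, and the later values of both genes were known when the pair was put together.

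The series compares WT cells of IMET1 with *hlr1*, an insertional mutant of the same strain with a hygromycin resistance cassette in *HLR1* (*g4928*), a light-harvesting gene of photosystem I. *hlr1* is 1 mutant line, and no complemented line is among the samples analysed here. Log-phase cultures of both strains were grown at a light of 50 μmol photons per square meter and second, spent a night in the dark and were moved to HL of 200 in the same unit. Sampling was at the end of the dark (0 h) and then at 1, 6, 96 and 144 h of HL, with 3 libraries (a, b and c) for each strain and time and 30 in all. For the light before that night the sources differ, with a light/dark cycle in the labels and continuous light in the methods. No control culture remained dark or at growth light, so effects of high light, of any light and of the time elapsed cannot be told apart. The GEO labels give 1 sample per strain and time. The letters come from the count columns, and the design text calls the 3 sets biologically independent.

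The wall of *Nannochloropsis* has an inner layer of cellulose under an outer layer of algaenan, an aliphatic polymer that resists hydrolysis. Cellulose is a chain of β-1,4-linked glucose. It is made at the plasma membrane by cellulose synthase, a glycosyltransferase of family GT2 that takes glucose from UDP-glucose. Glycosyl hydrolases do the opposite and cut glucan chains, either to break them down or to reshape a wall during growth and division. Family 17 of these enzymes is known mainly from plants and fungi, where it acts on β-1,3-glucans.

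*g6926* lies on scaffold 247, from 1031203 to 1034537 on the plus strand, a span of 3335 bp with introns included. The authors' table describes it as a cellulose synthase of *N. gaditana*, as Cellulose synthase 1 catalytic subunit [UDP-forming] and as a member of the Pfam family Glyco_tranf_2_3, and places it in the plasma membrane. *g7046* lies on scaffold 252, from 87617 to 90861 on the minus strand, a span of 3245 bp. Its best protein match is an unnamed product of the oomycete *Albugo candida*. It is further described as Probable beta-glucosidase btgE, with the Pfam family Glyco_hydro_17 and the GO terms cellulose catabolic process, extracellular region and fungal-type cell wall. By these annotations *g7046* encodes an enzyme that cleaves glucan and not one that makes cellulose. All descriptions are matches by similarity, and neither enzyme was assayed in these data.

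Few genes share these families. Glyco_tranf_2_3 is given to 5 genes of the tables, of which *g5048* is also described as a cellulose synthase of *N. gaditana* and *g4066* as a cellulose synthase of the brown alga *Ectocarpus siliculosus*. Glyco_hydro_17 is given to 2 genes, *g7046* and *g6512*. The neighbor of *g6926* on the other strand, *g6927* (a Lon protease), starts 39 bp beyond its end. *g7046* is 1 bp from *g7045* on the other strand and 47 bp from *g7047* on its own strand. Whether the counting used strand is not given, so reads that reach across such ends cannot be assigned with certainty.

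Library totals ranged from 4424898 to 7019039 counts. Genes with at least 1 count numbered 7184 to 9802 in libraries of the dark and of 1 h, 9864 to 9939 at 6 h and 10075 to 10216 at 96 and 144 h. In 3 libraries the counts stood apart. WT dark c held 15.2% of its counts in 4 genes, and *hlr1* dark a and *hlr1* 1 h b had a count for only 7184 and 7465 genes. The strain labels were checked with *HLR1* itself, which after 6 h was at 1501 ± 64.5 CPM (mean ± SD of 3 libraries) in WT and at 490.6 ± 10.01 in *hlr1*. In the dark, at 96 h and at 144 h the *HLR1* means were 1715 ± 264 and 876 ± 293, 754 ± 23.9 and 614 ± 15.7, and 1221 ± 77.4 and 574 ± 13.7 CPM, each without overlap between the strains. At 1 h the means were 939 ± 26.4 and 800.4 ± 99.5 CPM and *hlr1* b lay above WT c, so *HLR1* does not separate the strain labels at that time. CPM are counts per 1e6 counts of the library after edgeR's TMM scaling, and all levels below are given in this way. In bulk RNA, less transcript per cell and fewer cells with the transcript cannot be told apart.

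Transcripts of *g6926* were abundant in the dark, nearly disappeared after 6 h of HL and returned in part by 96 and 144 h, in both strains. In WT its counts in replicates a, b and c were 4771, 5032 and 4710 in the dark, which is 975, 1113 and 1446 CPM. After 1 h they were 1791, 1494 and 5337, or 318, 285 and 974 CPM. After 6 h only 34, 49 and 40 reads were left, or 4.46, 6.23 and 5.05 CPM. All libraries of 6 h lie far below all libraries of the dark, while replicate c of 1 h sits beside the lowest dark library and replicates a and b well under it. After 96 h the WT counts were 1253, 2046 and 1205 (155, 251 and 144 CPM). After 144 h they were 1716, 2473 and 2198 (238, 333 and 300.2 CPM). These late libraries stand between those of 6 h and of the dark and overlap with neither.

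In *hlr1* the counts of *g6926* were 3183, 5466 and 9747 in the dark (777, 1149.9 and 2069 CPM). After 1 h they were 4503, 7413 and 4665 (912, 1577 and 910.0 CPM), which is within the range of the dark. After 6 h they were 52, 53 and 28 (6.76, 6.50 and 3.55 CPM), as few as in WT. At 96 h the libraries were close to each other, with 1432, 1445 and 1453 counts (191, 188 and 177 CPM). At 144 h they were far apart, with 4222, 2183 and 6285 counts (560.0, 300.4 and 894 CPM). Replicate b of 144 h lies inside the range of WT at that time and the other replicates lie above it.

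**Figure D1:**
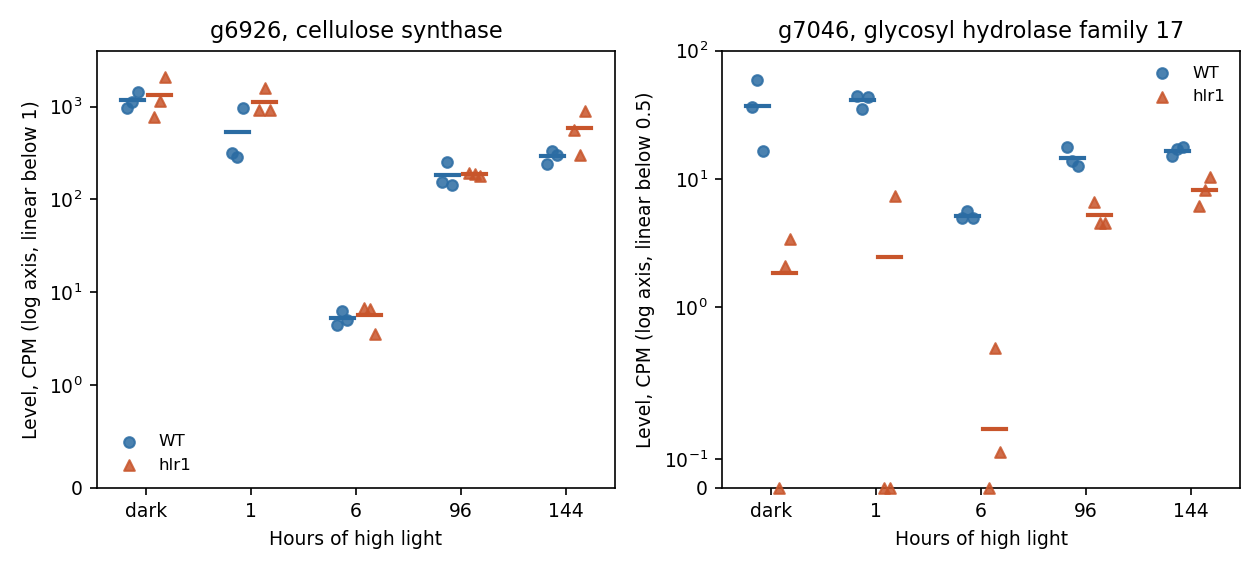
Level of *g6926* (left) and *g7046* (right) in each of the 30 libraries against the hours of high light, on a log axis that is linear near 0. Circles are WT, triangles *hlr1* and bars the mean of 3 libraries. *g6926* falls to a mean of 5.25 CPM in WT and 5.60 in *hlr1* at 6 h, and *g7046* is lower in every *hlr1* library than in every WT library of the same time, with 4 *hlr1* libraries at 0.

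The depth of the 6 h trough can be read from the group means. *g6926* stood at 1178 ± 242 CPM in the dark and 5.25 ± 0.903 after 6 h in WT, a ratio of 225. In *hlr1* it stood at 1332 ± 665 and 5.60 ± 1.78, a ratio of 238. edgeR's log2 fold change at 6 h against the dark was −7.85 (standard error 0.33) in WT and −7.55 (0.46) in *hlr1*. Ranked from the largest fall, *g6926* was number 32 of 9461 genes in WT and number 33 of 9446 in *hlr1*. As a background, 16.7% of the genes tested in WT and 13.1% in *hlr1* were called lower at 6 h, where a call is a Benjamini-Hochberg adjusted p under 0.05 by edgeR's quasi-likelihood test and a fold change over 2. Nothing is read from these shares for *g6926*, whose light response may have had a part in its choice.

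The recovery of *g6926* was partial. From 6 to 96 h its mean rose from 5.25 to 183 ± 58.8 CPM in WT, a ratio of 35.0, and from 5.60 to 185 ± 7.54 CPM in *hlr1*, a ratio of 33.1. The dark mean was still 6.42 times that of 96 h in WT and 7.18 times in *hlr1*. At 144 h the dark mean was 4.06 times the mean of 290.3 ± 48.5 CPM in WT and 2.28 times the mean of 585 ± 297 in *hlr1*, and in *hlr1* the libraries of 144 h overlapped with those of the dark. The log2 fold changes against the dark were −2.82 (0.32) at 96 h and −2.18 (0.26) at 144 h in WT, and −2.56 (0.30) and −0.94 (0.45) in *hlr1*. At 1 h they were −1.23 (0.45) in WT and −0.11 (0.35) in *hlr1*, and the sign of the latter turned when *hlr1* dark c, 1 h a or 1 h c was left out. The dark libraries are shared by all of these comparisons.

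The size of these falls depends on the scaling, since libraries of the dark and of 1 h had TMM factors of 0.697 to 0.944 and those of 6 h had 1.18 to 1.20. In WT the median over all genes of the 6 h log2 fold change was 0.10 with TMM, 0.33 with the size factors of DESeq2 and 0.82 with library totals. For *hlr1* the medians were 0.45, 0.42 and 0.77. Scaled by totals, *g6926* fell by 7.12 on the log2 scale in WT at 6 h, by 1.97 at 96 h and by 1.41 at 144 h. The fall at these times thus had the same direction under each scaling. Per count of actin (*g3056*), the reference gene of the study, *g6926* had 30.01 to 115 counts in the WT dark libraries and 0.0619 to 0.0810 at 6 h. Actin itself was at 26.4 ± 12.0 CPM in the WT dark and 73.5 ± 3.04 at 6 h.

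*g7046* was a far less abundant transcript that behaved differently: it was lower in *hlr1* than in WT at every time, and its range over time was smaller. The WT counts in replicates a, b and c were 178, 267 and 54 in the dark (36.4, 59.1 and 16.6 CPM). After 1 h they were 250, 184 and 237 (44.3, 35.1 and 43.3 CPM), within the spread of the dark. After 6 h they were 38, 44 and 39 (4.98, 5.60 and 4.92 CPM). The 6 h libraries lie close together and below all other WT libraries. Counts then came to 142, 112 and 106 at 96 h (17.6, 13.7 and 12.6 CPM). At 144 h they were 108, 127 and 130 (15.0, 17.1 and 17.8 CPM). Both late times overlap with the lowest dark library, which is WT dark c, and with each other.

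In *hlr1* the counts of *g7046* were 0, 10 and 16 in the dark (0, 2.10 and 3.40 CPM). After 1 h replicates a and b had 0 counts and replicate c had 38 (7.41 CPM). After 6 h the counts were 0, 4 and 1 (0, 0.491 and 0.127 CPM). With 0 counts, 3 counts of the library total are the limit, which is 0.671 CPM by totals for dark a, 0.521 and 0.602 for 1 h a and b, and 0.466 for 6 h a, and covers counting error only. From 96 h on every *hlr1* library had the transcript. The counts were 49, 35 and 37 at 96 h (6.55, 4.55 and 4.51 CPM). At 144 h they were 46, 59 and 73 (6.10, 8.12 and 10.4 CPM). All 6 of these libraries lie above all *hlr1* libraries of the dark and of 6 h, whereas in WT no late library reached dark a or b.

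At each of the 5 times the strains did not overlap for *g7046*. How many of all genes separate in this way was not counted, so the lack of overlap is a description only. It also occurs in genes that were not called, such as *g7045* at 6 and 96 h. In the dark the mean was 37.3 ± 21.3 CPM in WT and 1.83 ± 1.71 in *hlr1*, a ratio of 20.4. After 1 h it was 40.9 ± 5.07 and 2.47 ± 4.28, a ratio of 16.6. After 6 h it was 5.17 ± 0.373 and 0.206 ± 0.255, a ratio of 25.1, from 121 reads summed over the WT libraries against 5 over those of *hlr1*. The gap was narrower later. After 96 h the means were 14.7 ± 2.61 and 5.20 ± 1.17, a ratio of 2.82. After 144 h they were 16.6 ± 1.47 and 8.20 ± 2.14, a ratio of 2.02.

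The strain differences of *g7046* by edgeR were −4.40 (standard error 1.67) in the dark, −4.09 (1.63) at 1 h and −4.53 (0.63) at 6 h on the log2 scale, as a description. Ranked from the lowest in *hlr1*, these put *g7046* at number 3 of 8730, 12 of 8944 and 2 of 9429 genes. At 6 h, 0.286% of all genes tested were called in either direction, and *g7046* is among the genes that the choice was made from, so nothing is read from that share. The sizes rest on few reads. Leaving out replicate b of *hlr1* at 6 h gave −6.02, leaving out replicate c of *hlr1* at 1 h, the only one with reads, gave −10.69, which is no bound, and a prior count of 10 in place of the default gave −2.12 at 6 h. Without *hlr1* dark a and WT dark c the dark difference was −4.16 (0.73), and without *hlr1* 1 h b the difference at 1 h was −3.51 (1.20).

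**Figure D2:**
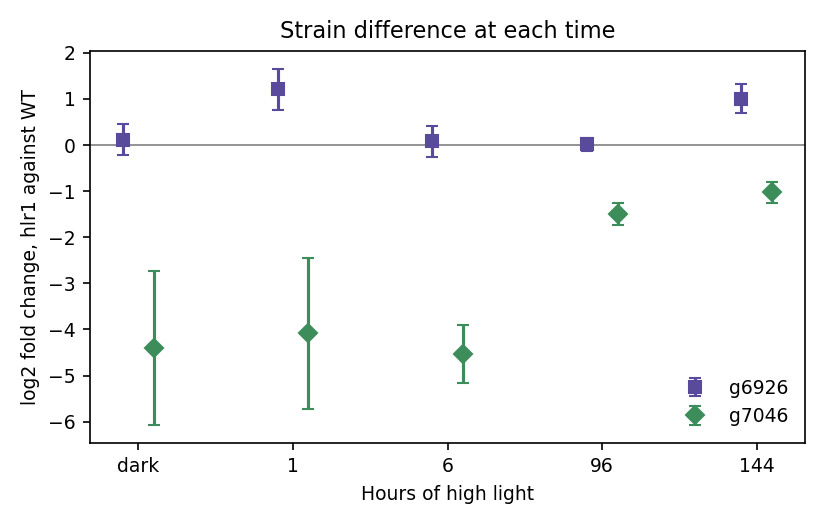
log2 fold change of *hlr1* against WT at each time for *g6926* (squares) and *g7046* (diamonds), from edgeR, with bars of 1 standard error, over 3 libraries of each strain. *g7046* is below 0 at all 5 times, from −4.53 at 6 h to −1.02 at 144 h, while *g6926* lies between 0.02 and 0.12 in the dark, at 6 h and at 96 h and is at 1.21 and 1.00 at 1 and 144 h.

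At 96 and 144 h the comparison was run as a test, times that the study's account of *g7046* does not describe. Its values at these times were known when the pair was put together, so the p-values are the output of the fit and are not independent support. At 96 h *g7046* was lower in *hlr1* by a log2 fold change of −1.49 (standard error 0.24, edgeR adjusted p = 0.00233), number 23 from the lowest of 9818 genes. It was 1 of 31 genes called lower, 0.316% of those tested. It was lower in 3 of 3 libraries than in any WT library. At 144 h the difference was −1.02 (0.22), number 50 from the lowest of 9817, and missed the threshold (edgeR adjusted p = 0.0644). DESeq2 gave the same size and an adjusted p of 0.00433. When all 10 groups were fitted together, so that the spread of the dark and 1 h libraries entered the test, the 96 h difference was −1.49 with an adjusted p of 1.00. Whether the gap narrowed between 96 and 144 h was tested as an interaction, and the change of 0.47 (0.33) was not past the threshold (edgeR adjusted p = 0.596).

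For *g6926* the *hlr1* mean was the higher at each time, by amounts from next to nothing to about the WT level itself, and the libraries of the strains overlapped at all 5 times. The sign of the fitted difference turned on leaving out WT a (−0.07) or *hlr1* c (−0.27) in the dark, and WT a (−0.01), *hlr1* a (−0.07) or *hlr1* b (−0.03) at 6 h. The log2 fold change of *hlr1* against WT was 0.12 (0.34) in the dark, 1.21 (0.45) at 1 h and 0.09 (0.34) at 6 h, as a description. At 1 h the *hlr1* mean of 1133 ± 384 CPM was 2.16 times the WT mean of 526 ± 389, in which replicate c was the high one. At 96 h the difference was 0.02 (0.14), with an edgeR adjusted p of 0.972, and its sign changed with the scaling and with 3 of the left-out replicates. At 144 h it was 1.00 (0.32), a ratio of means of 2.01, with an edgeR adjusted p of 0.119. Without *hlr1* replicate b it was 1.32 (0.18), with an adjusted p of 0.00200, so that 1 library decides this call. Since the choice of *g6926* is not documented, its p-values are the output of the fit and carry no support.

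Between 96 and 144 h the level of *g6926* went up further. In *hlr1* the log2 fold change was 1.64 (0.31, edgeR adjusted p = 0.0115), and all libraries of 144 h were above all of 96 h, with a ratio of means of 3.15. As a background, 2.81% of all genes were called higher in *hlr1* between these times. The call was lost when any replicate of 96 h or replicate a of 144 h was left out, with adjusted p of 0.0550 to 0.0780 and log2 fold changes of 1.61 to 1.68, and also when all groups were fitted together (1.66, adjusted p = 0.0771). In WT the log2 fold change was 0.64 (0.17, edgeR adjusted p = 0.0302), below 2-fold and so not called, where 0.621% of all genes were called in either direction. The interaction of strain and time was 0.98 (0.40, edgeR adjusted p = 0.419). Without *hlr1* 144 h b it was 1.33 (0.27), with an adjusted p of 0.0128. For *g7046* the log2 fold change between these times was 0.16 (0.19, edgeR adjusted p = 0.682) in WT and 0.64 (0.28, edgeR adjusted p = 0.137) in *hlr1*, and neither passed the test.

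The log2 fold changes of *g7046* with light were nearer to 0 in WT than those of *g6926*. In WT the log2 fold change against the dark was 0.11 (0.58) at 1 h (−0.18 without WT dark c), −2.86 (0.70) at 6 h, −1.45 (0.64) at 96 h and −1.30 (0.61) at 144 h. By means, the dark level was 7.23 times that of 6 h. In *hlr1* the gene had too few reads in the dark, 1 h and 6 h to be kept by the filter, and at 96 and 144 h its log2 fold changes were 1.82 (1.21) and 2.44 (1.27). Without *hlr1* dark a, which had 0 reads, these were 0.93 (0.48) and 1.57 (0.53). The strains thus had opposite signs at the late times, and this difference was not tested.

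Ordered by its mean level, *g6926* was highest in *hlr1* in the dark, followed by WT in the dark and *hlr1* at 1 h, whose libraries overlap. Next came *hlr1* at 144 h, WT at 1 h and WT at 144 h, each overlapping with its neighbor in this order, then both strains at 96 h and last both strains at 6 h. For *g7046* all WT groups other than 6 h led the order, with 1 h and the dark first and 144 and 96 h after them, each overlapping with its neighbor. *hlr1* at 144 h was the next and did not overlap with any of those. *hlr1* at 96 h and WT at 6 h followed with means of 5.20 and 5.17 CPM, then *hlr1* at 1 h, in the dark and at 6 h, again with overlaps between neighbors.

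Levels of different genes can be set beside each other only roughly per kb of gene span. The span includes introns, so genes of unlike intron content are not on the same scale. In the WT dark, *g6926* had 353 ± 72.7 CPM per kb and *g7046* 11.5 ± 6.55. At 6 h the ranges of the libraries overlapped, at 1.57 ± 0.271 and 1.59 ± 0.115 CPM per kb. At 96 h the levels were 55.0 ± 17.6 and 4.52 ± 0.805 CPM per kb. Across the 30 libraries the log2 CPM of the genes had a Pearson's r of 0.29 with each other (Spearman 0.17), given as a description, since libraries of a time share their light and scaling.

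The neighbors of *g7046* on the scaffold had small strain differences at 6 and 96 h that did not pass the test. *g7045* (a signal recognition particle domain) was at 60.8 ± 4.49 CPM in WT and 51.6 ± 3.74 in *hlr1* at 6 h, with a log2 fold change of −0.25 (0.11, edgeR adjusted p = 0.390). *g7047* (a PsbP domain) was at 45.8 ± 5.27 and 42.5 ± 1.55, with −0.12 (0.13, edgeR adjusted p = 0.760). At 96 h their strain differences were −0.32 and 0.19, with adjusted p of 0.112 and 0.410 from edgeR. Every *hlr1* library of *g7045* lay below every WT library at 6, 96 and 144 h, the direction of *g7046*. Its means at 144 h were 78.8 CPM in WT and 66.5 in *hlr1*, given with no test. In the dark and at 1 h its strains overlapped. *g7047* was higher in *hlr1* without overlap at 96 and 144 h, with 144 h means of 51.2 CPM in WT and 62.2 in *hlr1*. Whether reads from *g7045* had a part in the strain difference of *g7046* was not tested. At 6 h against the dark, *g7047* fell like *g7046* in WT, given with no test. The dark mean of *g7047* was 185 ± 56.2 CPM in WT and 231.2 ± 19.95 in *hlr1*, and no dark library overlapped with those of 6 h. Later the likeness ended, as *g7047* stayed at 42.8 ± 1.96 CPM at 96 h and 51.2 ± 2.56 at 144 h in WT. The WT means of *g7046* at these times were 14.7 and 16.6 CPM, above its 5.17 at 6 h. For *g7045* the dark means were 48.6 CPM in WT and 42.1 in *hlr1*, below those of 6 h, with overlap in both strains. Whether reads from *g7047* had a part in the 6 h fall of *g7046* was not tested. Beside *g6926*, the Lon protease gene *g6927* had a log2 fold change at 6 h against the dark of −0.39 (0.27) in WT and −0.06 (0.29) in *hlr1*, and neither was called (edgeR adjusted p = 0.330 and 0.880).

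The other genes described as cellulose synthases or as glycosyltransferases of family 2 form a list of 5 with *g6926*. This list is not the Pfam family given above. Its members *g6674* and *g2330* have other Pfam names, and *g2590* and *g3571* of Glyco_tranf_2_3 lack such a description and are not in it. *g5048*, the other cellulose synthase of the *N. gaditana* type, went the same way as *g6926* but less far. Its counts in WT were 573, 752 and 2039 in the dark and 167, 247 and 277 at 6 h, in order of size. The groups do not overlap, with means of 253 ± 142 and 29.4 ± 6.75 CPM and a log2 fold change of −3.09 (0.39, edgeR adjusted p = 0.00177). In *hlr1* it fell by 3.44 on the log2 scale (0.35, edgeR adjusted p = 0.000818). *g6674*, described as a cellulose synthase of family GT2, fell by 1.85 (0.25, edgeR adjusted p = 0.00268) in WT and by 1.33 (0.40, edgeR adjusted p = 0.0499) in *hlr1*. *g4066* had 24, 145 and 331 counts in the WT dark and 2, 6 and 9 at 6 h, and fell by 5.54 (edgeR adjusted p = 0.0134). In *hlr1* it had 0, 1 and 5 counts at 6 h and was not kept by the filter.

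*g2330*, which is only described as a transferase of family 2, went the other way. It had 91, 124 and 137 counts in the WT dark and 815, 1048 and 1130 at 6 h, and rose by 2.11 on the log2 scale in WT. In *hlr1* it rose by 4.15 (1.25, edgeR adjusted p = 0.0496), from 0, 26 and 100 counts. Without *g6926*, then, 3 of the 4 genes fell and 1 rose in WT at 6 h, and 2 of the 3 genes tested fell and 1 rose in *hlr1*. Of all genes, 16.7% were called lower and 8.94% higher in WT, and 13.1% and 12.7% in *hlr1*. At 144 h against the dark, *g5048* was lower (−1.64, edgeR adjusted p = 0.0154) and *g2330* higher (2.21, edgeR adjusted p = 0.00319) in WT, and none of the 4 was called in *hlr1*. From 96 to 144 h *g4066* rose in *hlr1* by 1.86 (edgeR adjusted p = 0.0145). In WT in the dark *g6926* had the highest level of the 5 per kb of gene span, introns included, and at 6 h only *g4066* lay below it.

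**Figure D3:**
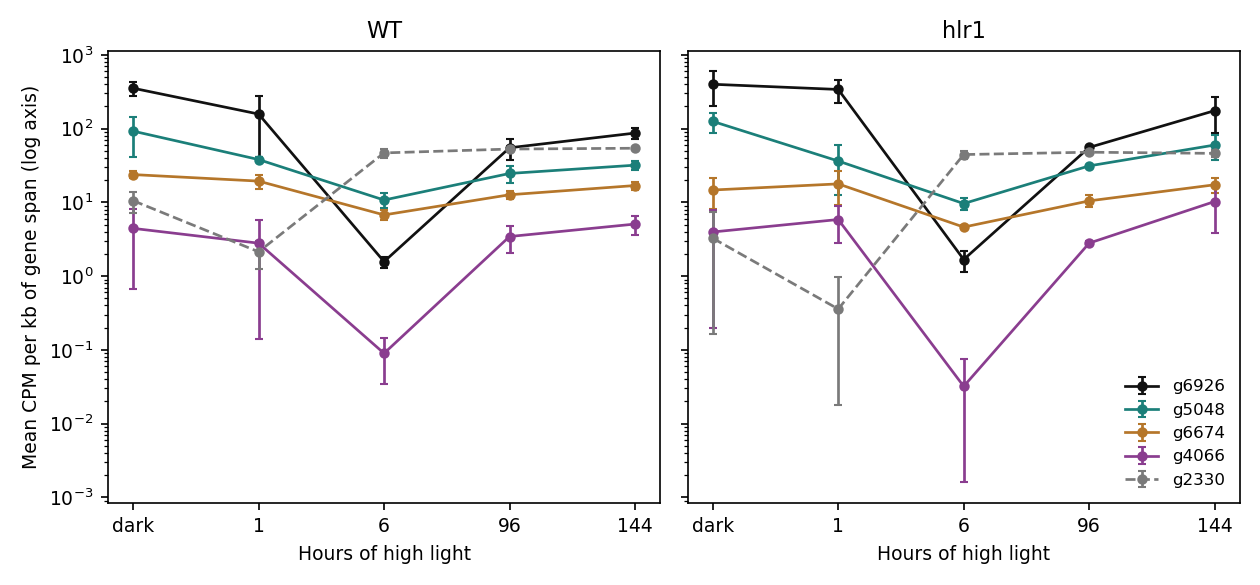
Mean level per kb of gene span, with bars of 1 SD over 3 libraries, of *g6926* and the other 4 genes described as cellulose synthase or family 2 glycosyltransferase, in WT (left) and *hlr1* (right), on a log axis. Where the SD exceeds the mean, the lower bar is shortened to stay above 0. The 4 solid lines reach their lowest point at 6 h and the dashed line of *g2330* is higher at 6 h than in the dark.

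*g6512* is the only other gene with the family 17 domain. Its WT counts were 0, 0 and 64 in the dark and 88, 142 and 156 at 6 h, and in *hlr1* they were 1, 20 and 52 and then 119, 155 and 179. Its strain difference was 0.20 (0.22) at 6 h, −0.25 (0.17) at 96 h and 0.05 (0.22) at 144 h, and none passed the test (edgeR adjusted p = 0.767, 0.522 and 0.909). Its libraries of the strains overlapped at these times, unlike those of *g7046*, and the difference between the genes was not tested.

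A wider set of 88 genes, without *g6926* and *g7046*, was taken from the descriptions to cover the making and breaking of wall sugars. It holds the 4 genes above, 36 glucosidases, cellulases and glucanases and 2 genes of β-1,3-glucan synthesis. The rest are 35 genes listed under sugar nucleotide supply and 11 listed as other wall-related. These lists follow words in the descriptions, so some members are described as other kinds of enzyme. Between the strains none of the 88 genes was called: 0 of 75 tested at 6 h, 0 of 85 at 96 h and 0 of 85 at 144 h, where 0.286%, 0.418% and 0.407% of all genes were. At an unadjusted p under 0.05 there were 11, 14 and 24 of them by edgeR, which is 14.7%, 16.5% and 28.2% of those tested beside 12.1%, 15.7% and 23.9% of all genes. DESeq2 called 0, 1 and 0. The lowest adjusted p at 6 h belonged to *g3553*, a cellulase, which was higher in *hlr1* by 0.97 on the log2 scale (0.13, edgeR adjusted p = 0.000868), under 2-fold. At 96 h it was *g5504*, a GDP-L-fucose synthase, at −0.42 (0.10, edgeR adjusted p = 0.0319), and at 144 h *g6966*, a mannanase, at −0.91 (0.17, edgeR adjusted p = 0.0422). With *g6926* and *g7046* included, *g7046* was the only one of the 90 genes called between the strains at 96 h by edgeR. Nothing is read from this, since *g7046* was chosen on measured values and the 88 genes were taken from descriptions.

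With light the set moved both ways. In WT at 6 h, 14 of 77 genes rose and 21 fell, beside 8.94% of all genes called higher and 16.7% called lower. In *hlr1* 17 of 75 rose and 12 fell, beside 12.7% and 13.1%. The medians of the set were 0.46 in WT and 0.86 in *hlr1*, against 0.10 and 0.45 over all genes. They were the same when the genes without a read in one group, 2 in each strain, were set to their bound of 3 counts per library. The split depends on the scaling and on the libraries that stand apart: with library totals it was 24 higher and 13 lower in WT and 20 and 9 in *hlr1*, and without those libraries 26 and 19 in WT and 30 and 21 in *hlr1*.

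**Figure D4:**
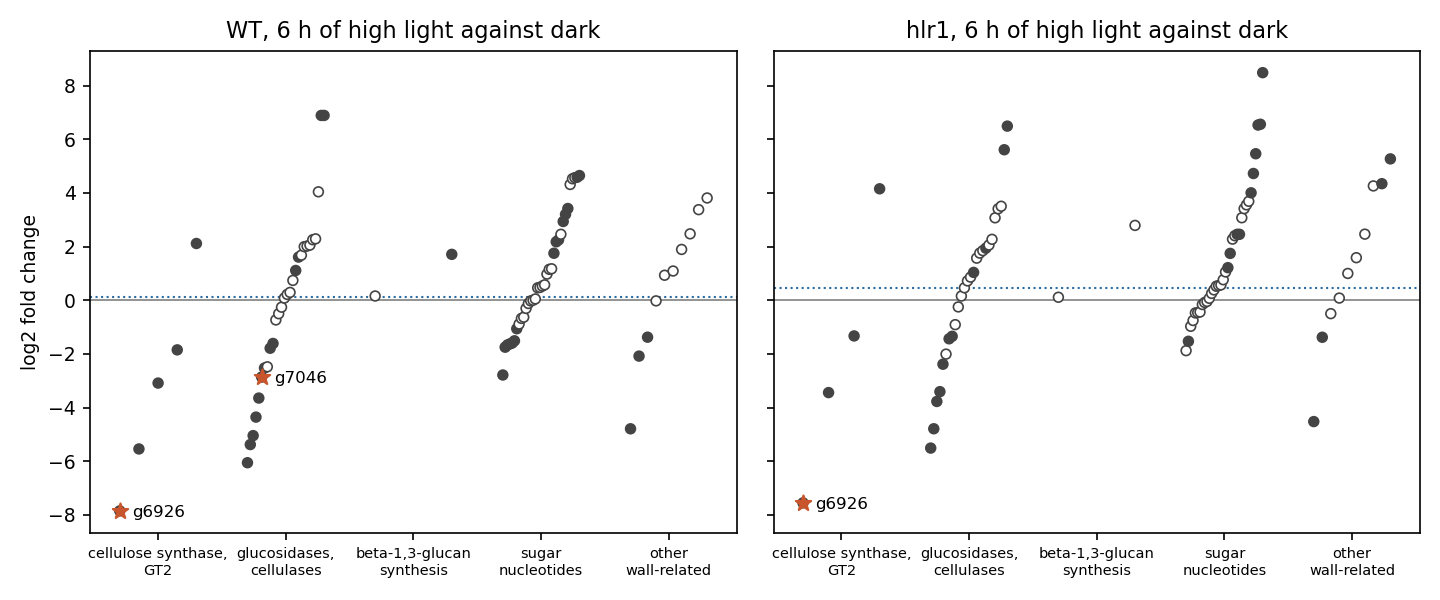
log2 fold change at 6 h of high light against the dark in WT (left) and *hlr1* (right) for each tested gene of the 5 lists, in order of size within a list. Filled points passed the test and open points did not. Stars mark, with no test, *g6926* in both panels and *g7046* in WT only, since the filter did not keep it in *hlr1*. The solid line is 0 and the dotted line the median of all genes (0.10 in WT and 0.45 in *hlr1*). *g6926* is the lowest point of both panels, and the list of cellulose synthases has more filled points below 0 than above.

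Among the glucosidases and cellulases, 4 of 27 rose and 8 fell in WT at 6 h, beside the same 8.94% and 16.7% of all genes, and 4 of 26 rose and 7 fell in *hlr1*, beside 12.7% and 13.1%. *g4700*, described as a glucan 1,3-β-glucosidase, had 1743, 1818 and 2791 counts in the *hlr1* dark and 60, 62 and 75 at 6 h, a fall of 5.51 (edgeR adjusted p = 6.19e-05). *g6365*, an endoglucanase, had 25, 34 and 59 counts in the WT dark and 0, 1 and 2 at 6 h, a fall of 6.06 (edgeR adjusted p = 0.0175). The largest rises of this list were from nothing: *g403*, a mannanase, had 0 counts in all WT dark libraries and 11, 22 and 24 at 6 h, and *g1106*, an endoglucanase, had 0 in all *hlr1* dark libraries and 11, 13 and 15. Both passed the test (edgeR adjusted p = 0.0301 and 0.0265).

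Of the genes listed under sugar nucleotide supply, 8 of 34 rose and 7 fell in WT at 6 h, beside 8.94% and 16.7% of all genes, and 10 rose and 1 fell in *hlr1*, beside 12.7% and 13.1%. The 1 that fell in *hlr1* was *g447*, a UDP-glucose pyrophosphorylase, the enzyme that makes the substrate of cellulose synthase. Its counts were 376, 556 and 635 in the dark and 250, 252 and 257 at 6 h, a fall of 1.53 (edgeR adjusted p = 0.00363). *g447* was also called lower in WT at 6 h, and at 144 h in WT only. Of the other genes described as UDP-glucose pyrophosphorylase, *g637* was called lower in WT only and *g2031* in neither strain at 6 h. These differences between the strains were not tested. *g5504*, the GDP-L-fucose synthase, rose from 0, 16 and 47 counts to 1106, 1209 and 1225 in WT, by 4.65 (edgeR adjusted p = 0.0324). *g5501*, which carries the name of that enzyme but a methyltransferase domain, fell by 2.79 in WT (edgeR adjusted p = 0.00878). *g2991* and *g5502*, which also fell in WT, are matched to methyltransferases too. *g1883*, which rose in both strains, and *g8004*, which rose in WT, are described as sugar transferases rather than supply enzymes. *g58*, a GDP-mannose transporter, went from 0 counts in all *hlr1* dark libraries to 39, 52 and 65 (edgeR adjusted p = 0.0133).

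Of the remaining lists, the β-1,3-glucan gene *g2541* (similar to yeast KRE6) rose in WT at 6 h by 1.71 (edgeR adjusted p = 0.0217), and neither gene of that list was called in *hlr1*. Among 10 other wall-related genes, 3 fell in WT, and 2 rose and 2 fell in *hlr1*, beside the same shares of all genes. *g1923*, a polyketide synthase, had 3583, 4465 and 5257 counts in the WT dark and 268, 286 and 383 at 6 h, and fell by 4.79 in WT (edgeR adjusted p = 0.000133) and by 4.52 in *hlr1* (edgeR adjusted p = 8.28e-05). *g461*, described as a [Skp1-protein]-hydroxyproline N-acetylglucosaminyltransferase and listed by words of that name, rose in *hlr1* by 5.27 (edgeR adjusted p = 0.00974).

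By 144 h of HL, 9 of 84 genes of the set were higher and 13 lower than in the dark in WT, beside 6.23% and 13.8% of all genes. In *hlr1* 9 of 84 were higher and 1 lower, beside 8.7% and 8.87%. The medians were 0.55 and 1.31, against 0.12 and 0.50 over all genes. With library totals the counts were 18 higher and 2 lower in WT and 18 and 1 in *hlr1*. Without the libraries that stand apart they were 21 and 13 in WT and 35 and 8 in *hlr1*. *g131*, a cellulase, was lower by 2.73 in WT (edgeR adjusted p = 0.000987) and by 1.86 in *hlr1* (edgeR adjusted p = 0.00215), where it was the only gene of the set that fell. *g9662*, an endoglucanase, had 0, 1 and 2 counts in the *hlr1* dark and 456, 588 and 644 at 144 h, a rise of 8.57 (edgeR adjusted p = 0.00112). *g9117*, another endoglucanase, had 0 counts in all WT dark libraries and 70, 76 and 79 at 144 h (edgeR adjusted p = 0.0138).

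Further genes of the set were called in 1 strain at 144 h, and the difference between strains was not tested for them. In WT, *g2541* was higher by 1.41 (edgeR adjusted p = 0.0467), and *g5501* and *g1923* were lower by −2.34 (edgeR adjusted p = 0.0146) and −1.56 (edgeR adjusted p = 0.0102). In *hlr1*, *g58* was at 32, 37 and 43 counts, against 0 in all dark libraries (edgeR adjusted p = 0.0151). From 96 to 144 h, the step at which *g6926* rose in *hlr1*, 6 of 84 genes of the set rose there and 0 fell, beside the 2.81% of all genes called higher. These were *g4066*, the hydrolases *g3553*, *g4700* and *g7758*, and the polyketide synthases *g1923* and *g8548*. In WT 1 of 85 genes of the set, *g1106*, fell over that step and 0 rose, beside 0.621% of all genes called in either direction.

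The genes whose pattern was most like that of *g6926* over the 30 libraries were *g7445* (Pearson's r of log2 CPM 0.992), *g9853* (0.992), *g3930* (0.991), *g9153* (0.990) and *g2818* (0.990), of 9970 genes compared. *g7445* is described as a WD repeat, SAM and U-box protein and the others have no informative description. They lie on other scaffolds than *g6926*. *g9153* had a mean of 1061 CPM over the dark libraries of both strains and 10.4 over those of 6 h, and *g2818* had 449 and 2.16. In all, 113 genes had an r over 0.9 with *g6926*. For *g7046* no gene did, and 2 were over 0.8: *g4349* (0.807), with a uDENN domain, and *g8445* (0.803), which has no description. *g4688* (0.787), *g8081* (0.773) and *g997* (0.772) followed. These values describe the 30 libraries, which share times, strains and scaling.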

How the data were processed

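RNA of 2 strains at 5 times was sequenced on an Illumina HiSeq. The authors deposited 1 table per time with raw read counts per gene, from reads mapped with TopHat2 2.0.12 (submitters' notes). The program that counted reads, its strand setting and the build mapped to were not given in the sources used here. Also in these tables are a normalized signal per strain, fold changes and p-values of the authors, none of which were used.

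In R 4.3.3, genes passing filterByExpr (minimum count 10) of edgeR 4.0.16 were scaled by TMM and tested with the quasi-likelihood test in a fit of the 6 libraries compared. The strain-by-time interaction used the 12 libraries of 96 and 144 h. Calls needed a Benjamini-Hochberg adjusted p under 0.05 over all genes tested and a fold change over 2. The standard error is the log2 fold change divided by the root of the F statistic. CPM levels use TMM factors over the 30 libraries, with 9970 genes kept. Likeness is Pearson's r of log2 CPM with a prior count of 2. The fits were tested on simulated data. Library totals are in the range given above, and 3 counts are 0.466 to 0.671 CPM by totals in the libraries without a read of *g7046*.

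The 2 genes and the 5 lists, taken from words in the descriptions, were chosen with earlier results of these data known. Named genes are the 2 genes in full, the called list members with the largest rise and fall in each strain at 6 and 144 h, those called between strains, the 5 most alike genes, the scaffold neighbors, *HLR1* and actin. The other cellulose synthases, *g6512*, the list members with the lowest p between strains and those called from 96 to 144 h were added after their values were seen. So were the called genes of the sugar nucleotide list described as sugar or methyl transferases. Alternatives were no filter, DESeq2 1.42.0, library totals, a prior count of 10, a replicate block, all groups in 1 fit, voom of limma 3.58.1 with sample weights, a 4-fold threshold, leaving out each replicate, and leaving out the 3 libraries that stand apart. No library was a copy of another of its group (chi-square per gene 3.39 to 208 over 30 pairs). The letters a, b and c did not pair libraries. No sequence of these genes was used here.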

Additional observations from a re-analysis of the deposited data

How the results depend on the processing

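The 30 values of *g6926* and *g7046* were recomputed under 430 alternatives, and in 403 of these a tested value kept its direction and call, or a value with no test stayed within the spread of replicates. In 10 of the 403 a small untested value changed sign, all of them with libraries left out (*g6926* between the strains in the dark and at 6 h and at 1 h against the dark in *hlr1*, and *g7046* at 1 h against the dark in WT). The cause of the others was not tested unless named. Fewer libraries, or 0 reads left in a group, are part of leaving one out. For *g7046* against WT, log2 values moved at 1 h to −6.88 with a replicate block and between −10.69 and −3.50 on leaving out replicates (without *hlr1* 1 h c, 0 reads remain in *hlr1*, so that value is no bound), and at 6 h to −2.12 with a prior count of 10 and between −6.02 and −4.00 on leaving out replicates. At 96 h its call was lost with all groups in 1 fit (−1.49) and at 4-fold (−1.49). At 144 h it was called by DESeq2 (−1.02), library totals (−1.08) and voom (−1.34), and on leaving out *hlr1* b or c (range −1.23 to −0.85). For *g6926* the strain difference at 96 h changed sign with library totals (−0.0112) and without WT a (−0.09), WT c (−0.13) or *hlr1* a (−0.0047), in a range of −0.13 to 0.31. At 144 h the range was 0.56 to 1.32, and of the interaction 0.57 to 1.33, both called only without *hlr1* b. Against the dark in WT, *g6926* moved with library totals to −7.12, −1.97 and −1.41 at 6, 96 and 144 h, and with a prior count of 10 to −7.46 at 6 h. Its rise from 96 to 144 h in *hlr1* ranged from 1.20 to 1.96 and was not called with all groups in 1 fit (1.66) or at 4-fold (1.64).

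The counts of wall and sugar nucleotide genes were the least stable. In WT at 6 h the 14 higher became 22 with DESeq2, 24 with totals, 22 with all groups in 1 fit, 25 with voom, 26 without the libraries that stand apart and 3 to 26 on leaving out replicates. The 21 lower became 13 with totals, 12 with the block, 11 at 4-fold and 12 to 22. In WT at 144 h the 9 higher became 18 with DESeq2, 18 with totals, 5 with the block, 16 with all groups, 19 with voom, 21 without the libraries that stand apart and 2 to 21 on leaving out replicates, and the 13 lower became 2 with totals, 3 at 4-fold and 6 to 13. In *hlr1* at 6 h the 17 higher became 26 with DESeq2, 6 with the block, 33 with voom, 30 without those libraries and 6 to 30, and the 12 lower became 22 with all groups, 21 without those libraries, 7 at 4-fold and 9 to 21. In *hlr1* at 144 h the 9 higher became 27, 18, 5, 28, 40 and 35 with DESeq2, totals, the block, all groups, voom and without those libraries, and 3 to 35 on leaving out replicates, and the 1 lower became 5 with DESeq2, 3 with the block, 7 with all groups, 6 with voom, 8 without those libraries, 0 at 4-fold and 1 to 8. Between the strains the 0 became 1 lower at 6 h (0 to 1 on leaving out replicates), 1 lower at 96 h with DESeq2 and with voom, and at 144 h 1 higher and 1 lower with voom and up to 8 higher on leaving out replicates (0 to 8).

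Letters shared by libraries did not pair them: in 0 of 15 comparisons were all 3 same-letter correlations of deviations from the group means over 0.1 (range −0.236 to 0.213), and in 1 comparison did every library correlate best with its own letter. The block changed no other result than those above. The *hlr1* level of *g7046* up to 6 h rests on at most 38 reads per library.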
